A study of Mus musculus with 20 samples.

Results

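The glucocorticoid and stress response genes followed here were measured in mouse hindlimb muscle by RNA sequencing. They were chosen by name from the deposited count table: Nr3c1, Fkbp5, Tsc22d3, Zbtb16, Mt1, Mt2, Cdkn1a, Gadd45a, Cebpd and Sesn1. These are 10 of the 21844 genes in the table, each on 1 row, and all 10 passed the filter on low counts, as did 14361 genes in all. The table holds 20 libraries in 4 groups of 5. Every mouse, controls included, carried the genotype Cre+:iMSBmal1 fl/fl, in which both copies of the clock gene Bmal1 are floxed and an inducible, muscle-specific Cre recombinase is present. The groups were vehicle without exercise, vehicle with exercise training, iMSBmal1KO without exercise and iMSBmal1KO with exercise training. Training was 6 weeks of daily treadmill running, and muscle was taken 47 hours after the last bout by the design text or 48 hours by the sample labels. The labels name both the gastrocnemius and the tibialis anterior, and no age, sex or strain is given in the sources used here. No label says that the libraries came from separate mice, so p-values measure the spread between these libraries.

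Glucocorticoids enter cells and bind the receptor encoded by Nr3c1, which moves to the nucleus and switches target genes on or off. In skeletal muscle this pathway is known for releasing amino acids from protein in fasting and illness, and the hormone that drives it follows a daily rhythm set by the clock. Fkbp5, Tsc22d3, Zbtb16, Mt1, Mt2 and Cebpd are known targets of the receptor, while Cdkn1a, Gadd45a and Sesn1 are known targets of the damage-sensing factor p53 and respond to other stresses as well.

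Some facts of the libraries bear on every result. Column totals ran from 10610333 to 19153527 counts. They did not overlap between the trained groups, at 13905273.7 to 17564810.5 counts with vehicle and 10610333.5 to 13079961 counts in libraries labelled knockout, and overlapped between the sedentary groups. The part of depth in the trained comparison was not tested. The trained vehicle library numbered 2, Vehicle Exercise Trained 2, differed by over 2-fold from the mean of its group's other libraries in 3745 genes. The same count was 30 to 584 genes in each of the other 19 libraries. For those of the trained vehicle group that mean included library 2, and the highest count in the other groups was 327 genes. Vehicle Exercise Trained 2 is described apart and left out of the group values below. Knockout-trained libraries 1 and 4, and likewise 3 and 5, differed by less than the noise limit used here and each pair was counted as 1 sample. The sample numbers are therefore 5 sedentary vehicle, 5 sedentary knockout, 4 trained vehicle and 3 trained knockout. Levels are given as CPM, in which each library's counts are divided by its own total and put on 1 scale. Arntl, the symbol under which the table lists Bmal1, had higher values in the samples labelled knockout. It stood at 5.68 to 7.93 CPM in sedentary vehicle muscle and 10.96 to 18.9 CPM in sedentary muscle labelled knockout (log2 difference of 0.85, exact two-sided permutation p = 0.00794, the smallest that 5 against 5 allows). In trained muscle it stood at 6.32 to 6.68 CPM with vehicle and 8.04 to 16.1 CPM in muscle labelled knockout (log2 difference of 0.62, exact two-sided permutation p = 0.0286, the smallest that 4 against 3 allows). A total over the gene counts reads outside the deleted part as well, so it checks the deletion only in part, and every direction below rests on the labels. Defining fibre genes were abundant in every library, with Acta1 between 9833 and 20470 CPM.

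Sequence upstream of the start was available from RefSeq (GRCm38.p6) for 7 of the 10 genes, in 11 windows of 250 bases. Of these, 3 are printed because the metallothionein pair moved together in Vehicle Exercise Trained 2 and because Fkbp5 has the binding motif of the targeted clock factor. Capitals mark the metal response core, searched as TGCNCNC with any base at each N, on either strand in Mt2 and Mt1, and the E-box CACGTG in Fkbp5. This is looser than a core with A or G after TGC. The Mt2 stretches GGGAGCA and TGCTCTC, read on the matching strand, have T there.
Mt2, chr8:94172368-94172617, plus strand: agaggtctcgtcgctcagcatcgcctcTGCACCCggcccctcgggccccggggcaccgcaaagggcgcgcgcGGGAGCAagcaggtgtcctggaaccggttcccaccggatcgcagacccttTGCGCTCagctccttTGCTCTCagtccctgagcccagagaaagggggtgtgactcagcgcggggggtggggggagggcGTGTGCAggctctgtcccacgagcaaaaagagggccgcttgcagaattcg
Mt1, chr8:94178839-94179088, plus strand: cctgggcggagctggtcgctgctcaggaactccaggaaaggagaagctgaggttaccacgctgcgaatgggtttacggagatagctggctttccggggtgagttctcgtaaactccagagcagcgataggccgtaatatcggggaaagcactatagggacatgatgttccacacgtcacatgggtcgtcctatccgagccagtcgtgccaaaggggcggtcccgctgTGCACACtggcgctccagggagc
Fkbp5, chr17:28486150-28486399, minus strand: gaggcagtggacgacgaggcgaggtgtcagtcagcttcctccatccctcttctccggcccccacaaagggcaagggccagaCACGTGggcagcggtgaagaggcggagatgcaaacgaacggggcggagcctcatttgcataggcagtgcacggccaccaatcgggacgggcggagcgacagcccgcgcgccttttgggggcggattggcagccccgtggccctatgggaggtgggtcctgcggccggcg
The starts of Mt2 and Mt1 lie 6471 bases apart on chromosome 8, and the windows end at the base before each start. The bases just after each RefSeq start were looked for in the early part of GENCODE M21 transcripts of any gene. They were found for Mt1 and not for Mt2, so the Mt2 window and the distance rest on RefSeq alone. They were also not found for Gadd45a, nor for the windows of Sesn1 and Tsc22d3 that held a match of the metal response core. A find does not show that a transcript opens at that base. The Mt2 window held 5 matches of the metal response core and the Mt1 window 1. Bases after each RefSeq start were not searched. These counts therefore hold for the printed windows and do not show how many matches either promoter has. Of 32851 windows of the same length, 44.4% held at least 1 match and 0.344% at least 5. Among the other members, 1 window each of Fkbp5, Sesn1 and Tsc22d3 held 1 match. The E-box stood in 6.02% of all windows and, of the members matched, in that of Fkbp5. The glucocorticoid half-site TGTTCT stood in 16.1% of all windows and in 1 of the 3 windows of Tsc22d3. The full glucocorticoid element, searched as AGAACA and TGTTCT with any 3 bases between them, stood in 3 of all windows (0.00913%) and in no member's. The cAMP response element stood in 1.55% of all windows and in no member's. Both strands were searched, each full glucocorticoid element also counts as a half-site, and a match is a string of letters and not a measured binding site.

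Sedentary muscle was compared first, to ask how these genes differed between muscle labelled knockout and vehicle muscle without training. Cdkn1a, Gadd45a and Sesn1 were higher in muscle labelled knockout, and Tsc22d3 was lower. These are 4 calls among 10 members by edgeR's quasi-likelihood test with Benjamini-Hochberg adjustment over all genes at 0.05. Of all genes tested, 3.13% were called higher and 3.84% lower, and scaling by library totals turned that balance (554 of 1005 calls higher) without turning the direction of a member called. Values of the groups did not overlap in the same direction for 5.63% (higher) and 3.77% (lower) of all genes, and for 3 and 1 members. Nr3c1, Fkbp5, Zbtb16, Mt1, Mt2 and Cebpd did not pass the test. The members' median log2 change was -1.36e-05, beside 0.017 over all genes.

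Cdkn1a (ENSMUSG00000023067) encodes p21, the inhibitor of cyclin-dependent kinases that halts the cell cycle. The 5 sedentary vehicle libraries gave 9.59, 9.98, 7.62, 7.63 and 10.2 CPM. The 5 sedentary libraries labelled knockout gave 157, 151, 106, 108 and 116 CPM. Every library labelled knockout was thus far above every vehicle library. The difference was 3.77 on the log2 scale (SE 0.21, adjusted p = 4.56e-09 by edgeR), or 13.7-fold.

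Gadd45a (ENSMUSG00000036390), a stress sensor that in muscle is also known to rise with denervation and wasting, was at 23.9, 30.1, 26.7, 23.7 and 30.7 CPM in sedentary vehicle muscle. Muscle labelled knockout had 49.7, 61.9, 46.8, 40.3 and 47.3 CPM. The groups did not overlap, and the log2 difference was 0.81 (SE 0.12, adjusted p = 0.000134 by edgeR), or 1.75-fold. Sesn1 (ENSMUSG00000038332) encodes sestrin 1, which restrains the growth kinase complex mTORC1 and limits oxidative damage. It was at 22.0, 24.1, 18.6, 19.7 and 20.8 CPM with vehicle and at 28.2, 26.9, 31.8, 28.7 and 29.8 CPM in muscle labelled knockout. Again all knockout-labelled values lay above all vehicle values, by 0.42 on the log2 scale (SE 0.10, adjusted p = 0.0105 by edgeR).

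Tsc22d3 (ENSMUSG00000031431) encodes GILZ, a glucocorticoid-induced protein that carries much of the hormone's anti-inflammatory action. Sedentary vehicle muscle gave 393, 373, 268, 303 and 282 CPM. Muscle labelled knockout gave 253, 244, 232, 203 and 266 CPM. The lowest vehicle library and the highest knockout-labelled library nearly met, and on the TMM scale of the test the groups overlapped. Tsc22d3 fell by 0.48 on the log2 scale (SE 0.13, adjusted p = 0.0318 by edgeR). This call was lost in 7 of 26 alternatives, with adjusted p up to 0.106 without vehicle library 1 and 0.0911 without vehicle library 2, 0.0657, 0.0719 and 0.089 without knockout libraries 2, 3 and 4, 0.0702 with scaling by library totals, and 0.551 with Vehicle Exercise Trained 2 kept.

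The other receptor-linked genes had negative log2 differences that did not pass the test. Fkbp5 (ENSMUSG00000024222), a co-chaperone that lowers the receptor's affinity for hormone and is itself induced by the receptor, was at 46.3, 40.5, 35.5, 39.4 and 40.1 CPM with vehicle. It was at 27.1, 31.2, 37.5, 28.0 and 21.3 CPM in sedentary muscle labelled knockout, so 1 library of that group reached into the vehicle range. The log2 difference was -0.53 (SE 0.16, adjusted p = 0.0603 by edgeR). Fkbp5 was called lower in 5 of 26 alternatives: by DESeq2 (adjusted p = 0.0207), and by edgeR on only the groups compared (0.0121), without sedentary knockout library 3 (0.0271), and without the knockout-trained pair 1 and 4 (0.00922) or library 2 (0.0238). Zbtb16 (ENSMUSG00000066687), the transcription factor PLZF, had a log2 difference of -0.32 (SE 0.12, adjusted p = 0.12 by edgeR), and the receptor gene Nr3c1 (ENSMUSG00000024431) one of -0.19 (SE 0.073, adjusted p = 0.15). DESeq2 called Nr3c1 lower as well (adjusted p = 0.0452).

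Metallothioneins, small proteins that bind zinc and copper, and Cebpd (ENSMUSG00000071637), a transcription factor of the C/EBP family induced early in inflammation, showed no call. Mt1 (ENSMUSG00000031765) had 11.7 ± 2.74 CPM with vehicle and 12.8 ± 2.24 CPM in muscle labelled knockout (SD, n = 5 each). Mt2 (ENSMUSG00000031762) had 4.04 ± 1.28 and 6.14 ± 1.496 CPM, and Cebpd had 30.5 ± 7.72 and 29.8 ± 9.38 CPM. For all 3 the ranges of the groups overlapped.

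Keeping Vehicle Exercise Trained 2 in the fit, which shares its spread over all 4 groups, left no member called in the sedentary comparison, with an adjusted p of 0.106 for Cdkn1a by edgeR. The sizes hardly moved, with 3.76 for Cdkn1a, 0.80 for Gadd45a and 0.41 for Sesn1 on the log2 scale.

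**Figure D1:**
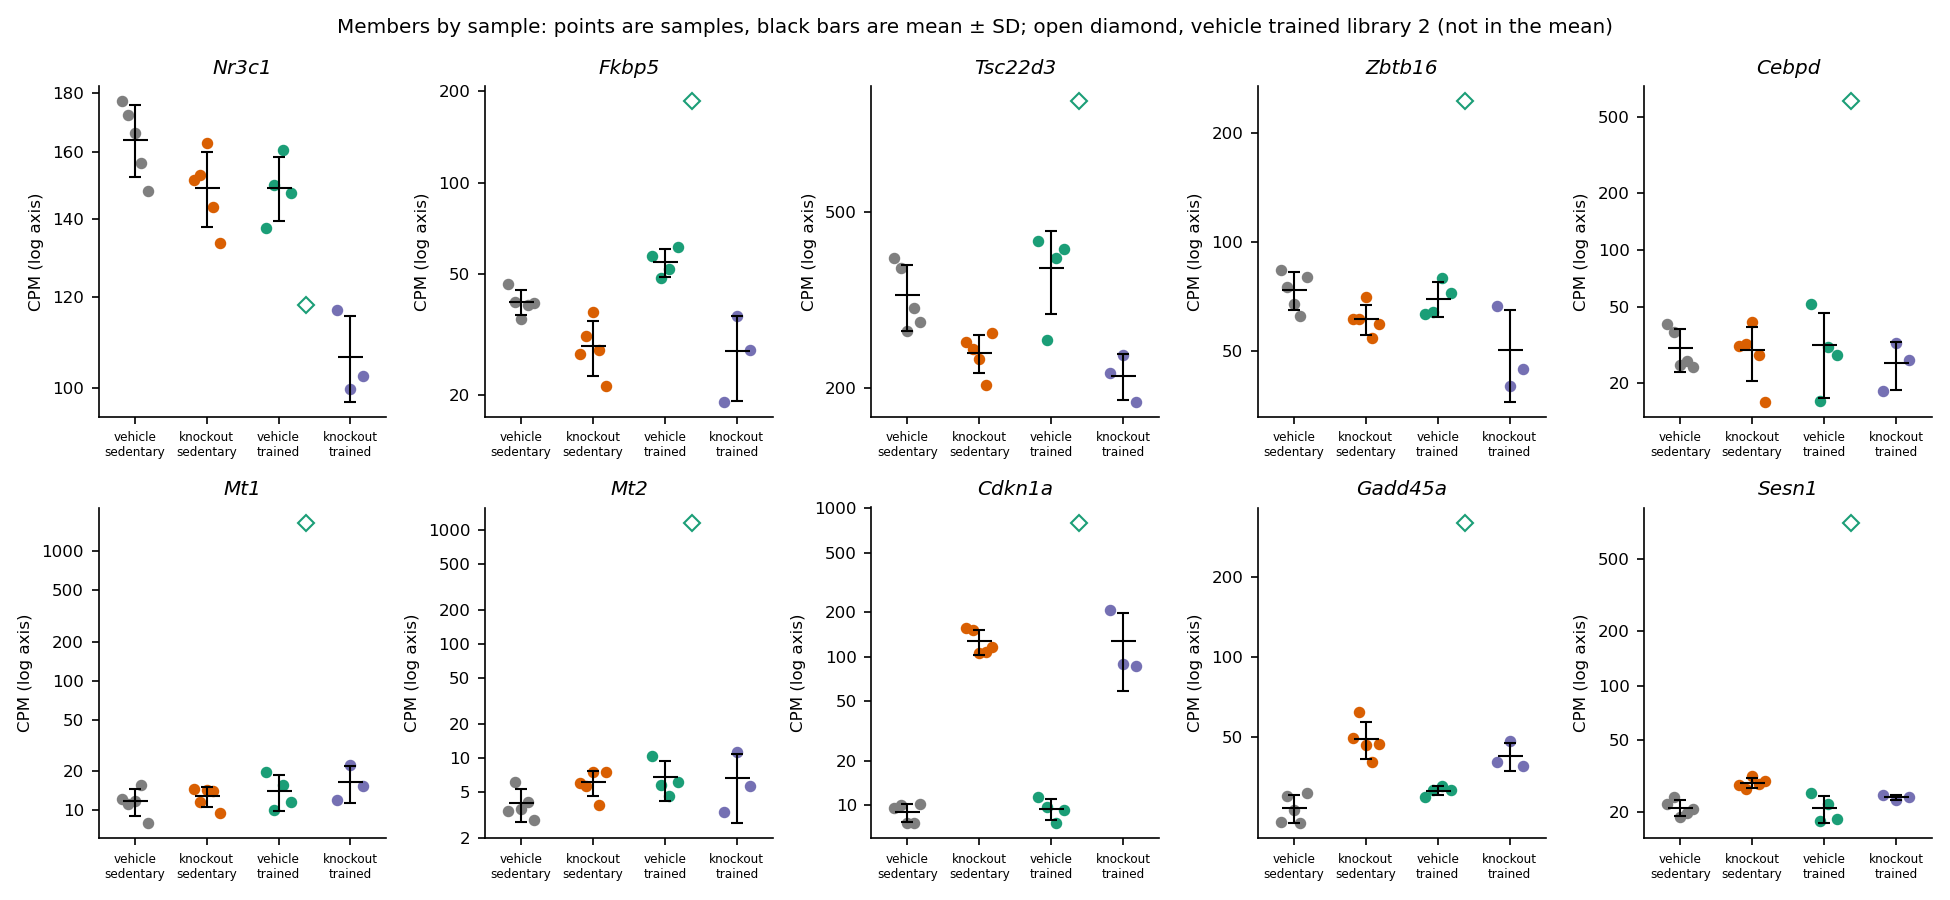
CPM of the 10 members in each sample of the 4 groups, 1 panel a gene, on a log axis. Filled points are samples, black bars are the group mean ± SD, and the open diamond is Vehicle Exercise Trained 2. Cdkn1a separates muscle labelled knockout from vehicle muscle with and without training, and the diamond lies above all other samples in 9 panels.

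Trained muscle was compared next. Again Cdkn1a and Gadd45a were higher in muscle labelled knockout. Nr3c1, Fkbp5 and Tsc22d3 were lower. The 5 calls compare with 5.01% of all genes called higher and 3.65% called lower by edgeR (482 of 1136 calls were higher when scaled by library totals). Values did not overlap for 2 members higher and 3 lower, as for 6.00% and 8.50% of all genes. Zbtb16, Mt1, Mt2, Cebpd and Sesn1 did not pass, and the members' median log2 change was -0.0789 beside 0.00455 over all genes.

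Among the receptor-linked genes, Fkbp5 was at 57.3, 48.5, 51.8 and 61.5 CPM in trained vehicle libraries 1, 3, 4 and 5. In trained muscle labelled knockout it was at 18.9 CPM in the pair 1 and 4, 36.3 CPM in library 2 and 28.0 CPM in the pair 3 and 5. All knockout-labelled samples lay below all vehicle samples, and Fkbp5 fell by 0.90 on the log2 scale (SE 0.20, adjusted p = 0.00758 by edgeR). Tsc22d3 was at 430.0, 256, 393 and 411 CPM with vehicle and at 216, 237 and 186 CPM in muscle labelled knockout. It too did not overlap, and it fell by 0.73 on the log2 scale (SE 0.16, adjusted p = 0.00841 by edgeR). Without the pair 3 and 5 the adjusted p for Tsc22d3 was 0.0538 by edgeR.

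The receptor gene Nr3c1 was at 138, 149.8, 161 and 148 CPM with vehicle and at 117, 99.9 and 103 CPM in trained muscle labelled knockout. No knockout-labelled sample reached the vehicle range, and Nr3c1 fell by 0.42 on the log2 scale (SE 0.089, adjusted p = 0.00535 by edgeR). Zbtb16 had 69.7 ± 7.64 CPM (SD, n = 4) with vehicle and 50.5 ± 14.3 CPM (SD, n = 3) in muscle labelled knockout, a log2 difference of -0.41 (adjusted p = 0.0838 by edgeR). Its pair 1 and 4, at 66.7 CPM, lay inside the vehicle range while the other samples, at 40.0 and 44.7 CPM, lay below it. Without that pair the log2 difference was -0.59 (adjusted p = 0.0128 by edgeR).

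Of the p53-linked members, Cdkn1a and Gadd45a passed the test and Sesn1 did not. Cdkn1a was at 11.3, 9.72, 7.57 and 9.25 CPM in trained vehicle muscle. It was at 207 CPM in the knockout-labelled pair 1 and 4, 89.4 CPM in library 2 and 86.9 CPM in the pair 3 and 5, so the first of these samples lay well above the others. The log2 difference was 3.79 (SE 0.25, adjusted p = 9.27e-08 by edgeR). Gadd45a was at 29.8, 31.6, 32.6 and 31.7 CPM with vehicle and at 40.2, 48.4 and 38.9 CPM in muscle labelled knockout. The groups did not overlap and the log2 difference was 0.50 (SE 0.14, adjusted p = 0.032 by edgeR). Its call was lost in 7 of 26 alternatives with the direction kept, among them the fit without knockout library 2 (log2 difference 0.37, adjusted p = 0.125). Sesn1 was at 25.5, 17.7, 22.1 and 18.4 CPM with vehicle and at 24.8, 23.2 and 24.1 CPM in muscle labelled knockout, where library 1 of the vehicle group exceeded every knockout-labelled sample (log2 difference 0.27, adjusted p = 0.169 by edgeR). Without that vehicle library the difference was 0.38 (adjusted p = 0.0369).

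Mt1, Mt2 and Cebpd overlapped between the trained groups. Mt1 had 14.1 ± 4.37 CPM (SD, n = 4) with vehicle and 16.6 ± 5.21 CPM (SD, n = 3) in muscle labelled knockout, Mt2 had 6.79 ± 2.56 and 6.74 ± 4.06 CPM, and Cebpd had 31.6 ± 14.9 and 25.6 ± 7.24 CPM. A fit on these trained samples alone called Cdkn1a and no other member, with adjusted p of 0.0805 for Nr3c1, 0.0655 for Fkbp5, 0.0585 for Tsc22d3 and 0.0687 for Gadd45a by edgeR. With Vehicle Exercise Trained 2 kept, Nr3c1, Fkbp5 and Tsc22d3 were called and Cdkn1a had a log2 difference of -0.46.

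Marker genes of other cells were summed in each sample beside these results. The satellite cell list summed to 43.9 to 52.2 CPM in sedentary vehicle muscle and 53.7 to 68.3 CPM in sedentary muscle labelled knockout, and to 37.0 to 50.2 and 47.3 to 53.9 CPM in trained muscle. Of its 5 tested members, Cdh15 was called higher in muscle labelled knockout in both comparisons (log2 changes of 0.36 and 0.52, adjusted p = 0.0381 and 0.0134 by edgeR). In the fibroblast list Col3a1 was called higher in sedentary muscle labelled knockout (0.92, adjusted p = 0.0188 by edgeR), and in the fibre list Mb and Mylpf were called higher in trained muscle labelled knockout (0.79 and 0.69, adjusted p = 0.00994 and 0.0407). Blood, adipocyte, Schwann cell, endothelial and macrophage lists had no call in any comparison. Whether these markers have a part in the members' differences was not tested, and in bulk muscle fewer cells of a type and less RNA per cell cannot be told apart.

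**Figure D2:**
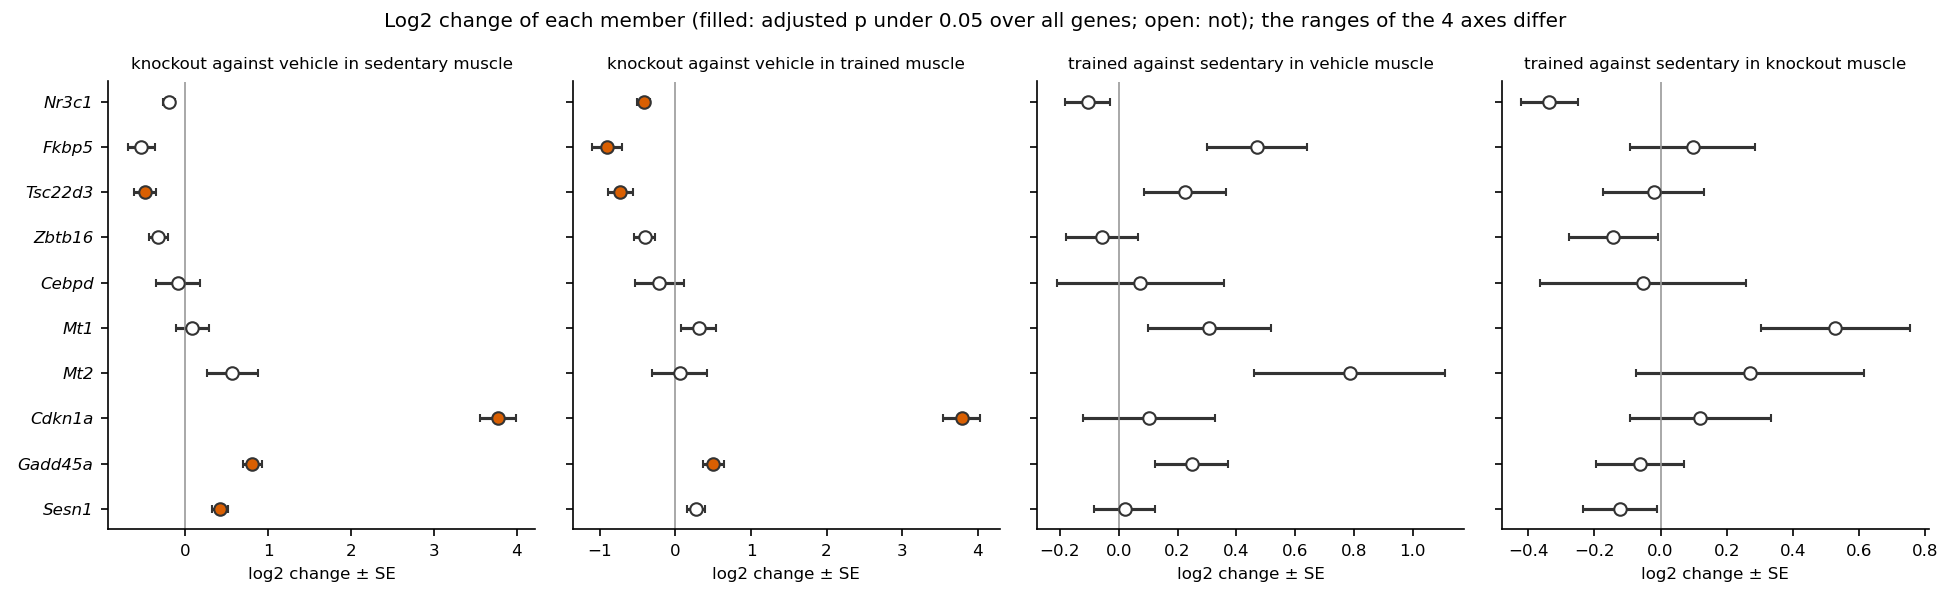
Log2 change of each member in the 4 pairwise comparisons, with bars of 1 SE on either side. Filled points had an adjusted p under 0.05 by edgeR, and the horizontal ranges of the 4 panels differ. Cdkn1a reaches 3.77 and 3.79 in the knockout comparisons, and no point is filled in the training comparisons.

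Training was compared within each genotype label. In vehicle muscle no member passed the test, as no gene did (0% of 14361 by edgeR), while 2 members and 1869 genes had an unadjusted p under 0.05, and DESeq2 called 22 genes with no member among them. Fkbp5 was the member whose values did not overlap upward: trained vehicle muscle lay at 48.5 to 61.5 CPM and sedentary vehicle muscle at 35.5 to 46.3 CPM, a pattern that 0.557% of all genes showed. Its log2 difference was 0.47 (SE 0.17, adjusted p = 0.357 by edgeR). The other member with an unadjusted p under 0.05 was Mt2, with a log2 difference of 0.78 (SE 0.32, adjusted p = 0.363 by edgeR) and overlapping values. Gadd45a varied little in trained vehicle muscle, at 31.4 ± 1.16 CPM (SD, n = 4) beside 27.0 ± 3.31 CPM (SD, n = 5) without training, and its adjusted p was 0.399.

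In muscle labelled knockout, 121 genes passed the training test, 0.843% of those tested and 100 of them higher (44 of 336 when scaled by library totals), and no member did, with 2 members at an unadjusted p under 0.05. Nr3c1 came nearest. The trained samples, at 99.9 to 117 CPM, lay below the sedentary ones, at 133 to 163 CPM, and the log2 difference was -0.34 (SE 0.085, adjusted p = 0.0598 by edgeR). DESeq2 called it (adjusted p = 0.00339), and so did edgeR with library totals as the scale, with all libraries kept separate, and without trained vehicle library 1 or the knockout-trained pair 1 and 4. Sesn1 also did not overlap on the CPM scale, at 23.2 to 24.8 CPM with training and 26.9 to 31.8 CPM without, but it did on the TMM scale, and its log2 difference was -0.12 (adjusted p = 0.633 by edgeR). Downward separation of this kind was seen in 9.77% of all genes. Mt1 had 16.6 ± 5.21 CPM (SD, n = 3) with training and 12.8 ± 2.24 CPM (SD, n = 5) without (log2 difference 0.53, adjusted p = 0.226 by edgeR), and without the pair 1 and 4 it was called (0.76, adjusted p = 0.0323).

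The interaction asks whether the knockout difference itself differed between trained and sedentary muscle. No member passed, as no gene did (0% of those tested by edgeR), with 1644 genes and no member at an unadjusted p under 0.05, and DESeq2 called 87 genes with no member among them. The log2 interaction was -0.37 for Fkbp5 (SE 0.26, adjusted p = 0.611), -0.23 for Nr3c1 (SE 0.11, adjusted p = 0.455), -0.31 for Gadd45a (SE 0.18, adjusted p = 0.541) and 0.017 for Cdkn1a (SE 0.31, adjusted p = 0.992), all by edgeR. Nr3c1 and Fkbp5 were called by edgeR in trained muscle and not in sedentary muscle, where DESeq2 called both, and their knockout differences are not shown to differ between the training states. The pairwise comparisons share samples, so the members' values in them are set side by side without a measure of likeness.

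Among themselves, the members were followed over the 17 samples on the log2(CPM + 1) scale. Fkbp5 and Tsc22d3 had Pearson r = 0.76 and Cdkn1a and Gadd45a r = 0.883. With the group means taken out these came to 0.247 and 0.182, so most of the likeness lay between groups. Nr3c1 and Zbtb16 had r = 0.814, and 0.659 within groups. Mt1 and Mt2 had r = 0.545 (Spearman rho 0.233), and r = 0.487 within groups. Samples of a group share their condition, and these coefficients are descriptions.

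Over the same 17 samples, the genes with the pattern most like Cdkn1a were Tead4 (r = 0.988), Dupd1 (0.979) and Sh3bp5 (0.975). Nearest to Gadd45a were Zmat2 (0.932), Sox4 (0.914) and Dupd1 (0.902), and nearest to Sesn1 were Ralgds (0.893), Pfdn2 (0.869) and Nfil3 (0.864). For Fkbp5 they were Nrep (0.927), Mettl21c (0.909) and Aldh1a1 (0.899), for Tsc22d3 Tmem100 (0.885), Rab7 (0.872) and Epb41l5 (0.866), for Nr3c1 Pdzrn3 (0.921), Ece1 (0.92) and Rere (0.917), and for Zbtb16 Cpd (0.908), Abcc1 (0.907) and Eef1aknmt (0.906). Mt1 was most like Dnajc4 (0.918), Mt2 most like Sh3rf3 (0.91) and Cebpd most like Spout1 (0.85).

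The wider pathways were described with 6 lists of 92 genes, of which 89 were tested and from which the members were left out. A few genes stand on more than 1 list. Of all genes, 3.13% were called higher and 3.84% lower in sedentary muscle, and 5.01% and 3.65% in trained muscle. The list counts below are to be read beside these shares, and lists with 1 call lie near them. The machinery of the receptor (Nr3c2, chaperones, the enzymes that regenerate active hormone, and coregulators) had no call among 15 genes in sedentary muscle and 1 in trained muscle, where H6pd, which supplies the cofactor for hormone regeneration, fell by 0.38 on the log2 scale in muscle labelled knockout (SE 0.11, adjusted p = 0.0411 by edgeR). Its medians were 0.04 and -0.08.

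Of 23 other glucocorticoid-responsive genes, none was called higher in muscle labelled knockout, 3 were called lower in sedentary muscle and 2 in trained muscle. Glul, glutamine synthetase, stood at 474 ± 84.2 CPM with vehicle and 233 ± 44.4 CPM in muscle labelled knockout without training (SD, n = 5 each, adjusted p = 8.42e-05 by edgeR). In trained muscle Glul had 477 ± 81.1 CPM (SD, n = 4) and 255 ± 38.2 CPM (SD, n = 3), with an adjusted p of 0.00785 by edgeR. Foxo1, the transcription factor of muscle protein breakdown, fell by 0.45 and 0.40 on the log2 scale (adjusted p = 0.00132 and 0.0174 by edgeR). Per1, which is also a clock gene, fell by 0.73 in sedentary muscle (adjusted p = 0.0499 by edgeR). The list's medians were -0.143 and -0.0291, beside 0.017 and 0.00455 over all genes.

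Of 18 other genes of the p53 and DNA damage list, 1 was called higher and 3 lower in sedentary muscle labelled knockout. Trp53, the p53 gene itself, rose by 0.46 on the log2 scale (adjusted p = 0.0373), while Phlda3, an inhibitor of Akt, fell by 0.65 (adjusted p = 0.00211), Gadd45b fell by 0.57 (adjusted p = 0.00737) and the DNA polymerase gene Polk fell by 0.45 (adjusted p = 0.0231), all by edgeR. In trained muscle Btg2, an antiproliferative gene, was called higher (31.5 ± 20.1 CPM, SD, n = 3, against 14.7 ± 1.39 CPM, n = 4, adjusted p = 0.00437 by edgeR), and Polk and Phlda3 were called lower. The list's medians were 0.104 and 0.145.

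Among metal response genes, 1 of 10 was called lower in sedentary muscle labelled knockout (the zinc transporter gene Slc30a2, which fell by 0.59 on the log2 scale, adjusted p = 0.0206 by edgeR) and none in trained muscle. Ddit3, which encodes the stress factor CHOP, was the 1 of 12 genes of the C/EBP and integrated stress response list to be called in sedentary muscle, where it fell by 0.59 (adjusted p = 0.000212 by edgeR). In trained muscle Ddit3 fell by 0.45 (adjusted p = 0.0132) and Cebpg fell by 0.32 (adjusted p = 0.0451), both by edgeR. Of 14 oxidative stress genes, Txnrd1 was called lower in sedentary muscle. In trained muscle the quinone reductase gene Nqo1 rose by 0.74 (adjusted p = 0.00418 by edgeR), while Nfe2l2 and Gclm were called lower. Training gave no call in any list in vehicle muscle. In muscle labelled knockout it gave 1, beside 0.843% of all genes. This was the copper transporter Atp7a, which fell by 0.86 (SE 0.18, adjusted p = 0.0349 by edgeR).

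**Figure D3:**
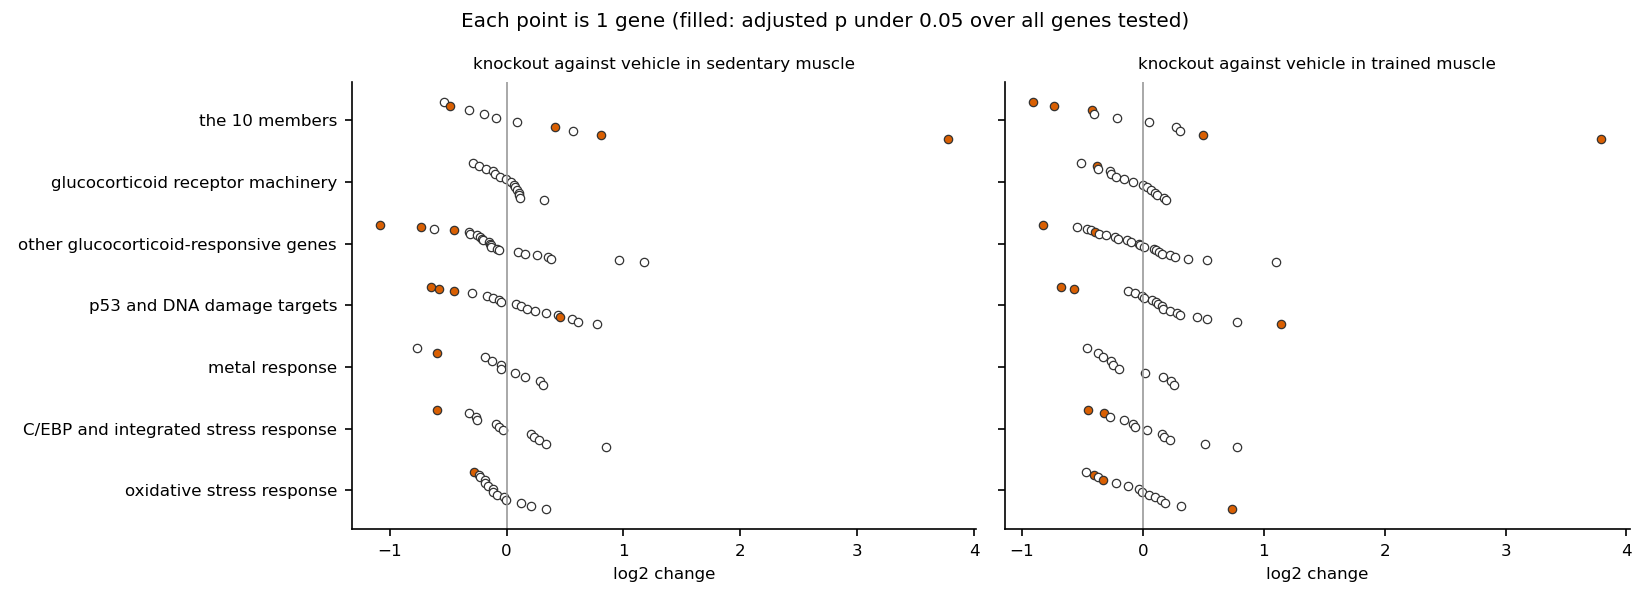
Log2 change of each tested gene (1 point a gene, spread vertically within its list for sight) of the members and the 6 pathway lists, in sedentary muscle on the left and in trained muscle on the right, both as muscle labelled knockout against vehicle. Filled points had an adjusted p under 0.05 by edgeR, and Cdkn1a, the rightmost member at 3.77 and 3.79, lies beyond every listed gene in both panels.

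Vehicle Exercise Trained 2 is 1 library, so its values have no replicate and no p-value is given for them. Against the mean of the other 4 trained vehicle libraries on the log2(CPM + 1) scale, 9 of the 10 members were more than 2-fold higher and none was more than 2-fold lower. Of all genes, 9.63% were more than 2-fold higher and 16.4% more than 2-fold lower, and the median over all genes was -0.17.

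The metallothioneins stood out most. Mt2 was at 1159.9 CPM, with 10.5, 5.78, 4.67 and 6.21 CPM in the other 4 libraries, and Mt1 was at 1674.5 CPM, with 19.6, 9.91, 15.5 and 11.4 CPM. Their log2 differences of 7.22 and 6.79 ranked 1 and 2 among 14361 genes. They are the neighbours whose upstream windows are printed above. Whether the motif matches in those windows have a part in these values was not tested. The values rested on 17558.6 and 25348.4 estimated counts.

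Cdkn1a ranked 4, at 801 CPM beside 7.57 to 11.3 CPM in the other 4 libraries (log2 difference 6.26). It exceeded the highest of all other 19 libraries, a knockout-trained one, by 3.83-fold. Sesn1 ranked 10, at 796.5 CPM beside 17.7 to 25.5 CPM (5.18), and was 25.1 times the highest other library. Cebpd ranked 31, at 608.5 CPM beside 15.97 to 51.8 CPM (4.22), and Gadd45a ranked 70, at 320.4 CPM beside 29.8 to 32.6 CPM (3.31). All of these lay above every other library of the series.

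The glucocorticoid targets with a less steep difference were Zbtb16 at 244 CPM beside 63.1 to 79.4 CPM (log2 difference 1.80), Fkbp5 at 186 CPM beside 48.5 to 61.5 CPM (1.74) and Tsc22d3 at 891 CPM beside 256 to 430.0 CPM (1.26). They ranked 427, 467 and 928. The receptor gene Nr3c1 went the other way, at 118 CPM beside 138 to 161 CPM (-0.33), inside the range of all other libraries (99.9 to 177 CPM). Arntl stood at 132 CPM in this library, beside 6.32 to 6.68 CPM in the other trained vehicle libraries.

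**Figure D4:**
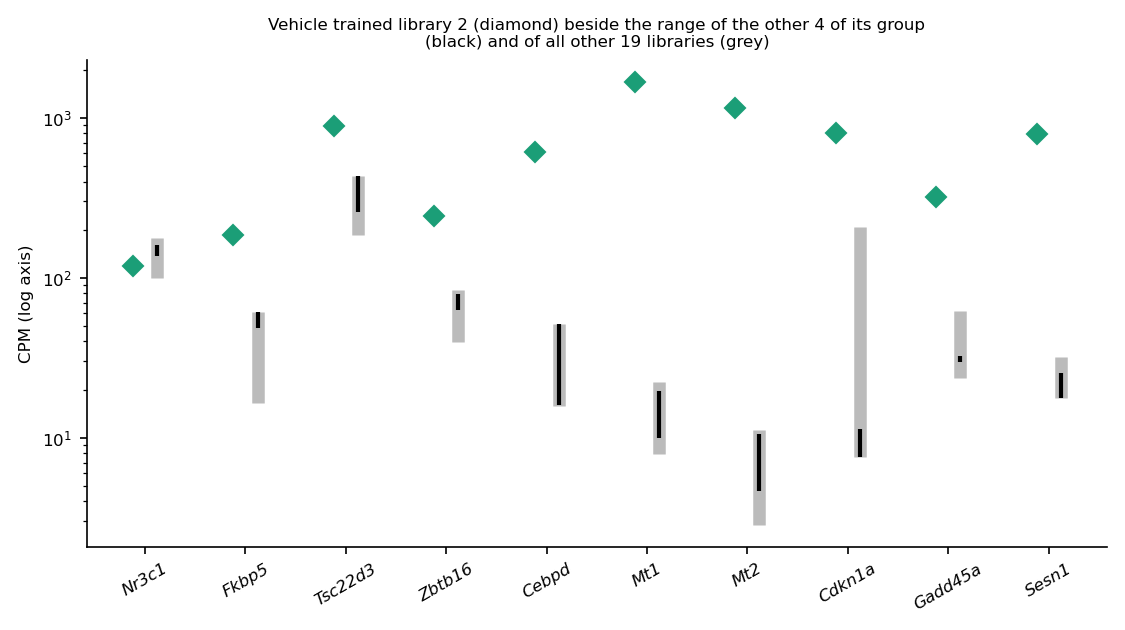
Level of each member in Vehicle Exercise Trained 2 (diamond), beside the range of the other 4 trained vehicle libraries (black bar) and of all other 19 libraries (grey bar), in CPM on a log axis. The diamond lies above the grey bar for 9 genes and inside it for Nr3c1.

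Its pathway lists differed in how many genes moved with the members. The counts stand beside 9.63% of all genes more than 2-fold higher and 16.4% more than 2-fold lower. Of the 23 other glucocorticoid-responsive genes, 18 were more than 2-fold higher and 1 lower, with a median of 2.01. Lcn2, an acute phase protein, was at 55.6 CPM beside 0.185 to 1.15 CPM, the insulin signalling gene Irs2 at 664 beside 25.1 to 35.0 CPM, the muscle ubiquitin ligase gene Trim63 at 6307 beside 290.4 to 345 CPM, and the mTORC1 inhibitor gene Ddit4 at 398 beside 7.08 to 51.5 CPM. Of 15 genes of the receptor machinery, 3 were more than 2-fold higher and 1 lower (median 0.27), with the chaperone gene Hsp90ab1 at 2008 beside 698 to 885 CPM and the mineralocorticoid receptor gene Nr3c2 at 5.09 beside 11.1 to 16.1 CPM.

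In the stress lists of this library, 8 of 18 p53 targets were more than 2-fold higher and 3 lower (median 0.716). Btg2 was at 500.2 beside 12.9 to 16.3 CPM, Trp53inp1 at 397 beside 23.6 to 29.1 CPM and Polk at 2.97 beside 15.0 to 22.6 CPM. Only 2 of 10 metal response genes were more than 2-fold higher (median 0.312), the zinc and iron importer gene Slc39a14 at 824 beside 13.4 to 16.6 CPM and the haem oxygenase gene Hmox1 at 108 beside 12.1 to 20.1 CPM. For the C/EBP and integrated stress response list the count was 5 of 12 (median 0.681), with Atf3 at 216 beside 3.53 to 9.78 CPM and Ppp1r15a at 719 beside 21.4 to 26.1 CPM. For oxidative stress it was 7 of 14 (median 1.15), with Srxn1 at 191 beside 28.4 to 38.0 CPM.

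Markers in this library moved as well. The fibre list summed to 50964 CPM beside 70706 to 86661 CPM in the other trained vehicle libraries, with a median log2 difference of -0.747 over its 10 genes. Adipocyte markers summed to 172 CPM beside 226 to 1094 CPM (median -2.63 over 7 genes, Lep at 0), and fibroblast and tendon markers to 1763 CPM beside 1658 to 3031 CPM (median -2.52 over 9 genes). The macrophage list summed to 439 CPM, above the range of 59.0 to 396 CPM in all other samples, with a median of 0.776 over 8 genes. Blood, endothelial and satellite cell medians were -0.879, -0.166 and -0.37, and the Schwann cell median was 0.198. Their part in the members' values was not tested.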

How the data were processed

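RNA of 20 libraries was sequenced. The deposited table is named for CPM (counts relative to each library's total), but it holds estimated counts per gene, since 72% of values are whole, columns sum to different totals and the lowest gene sum is 10. The submitters' processing notes name Partek, STAR 2.7.8a and DESeq2, and the builds mm10 and GRCm39 without a role. Every column was matched to a sample. Estimated counts were rounded and fitted with edgeR 4.0.16 (R 4.3.3, quasi-likelihood, TMM, 4 group means) on 17 samples. A gene was tested where 5 or more libraries reached a CPM of 1, and p-values were adjusted over all 14361 genes at a threshold of 0.05. CPM values use library totals, while log2 changes use TMM scaling. The SE of a log2 change was derived from the quasi-likelihood test, as the absolute log2 change divided by the square root of the F statistic. Scaling by totals shifts the median of all genes by -0.147 (training in knockout) and -0.116 (interaction). Of 190 library pairs, 2 had a noise ratio (1000 to 10000 counts against 10 to 100) under the limit of 1.5, at most 1.253, and the lowest other pair had 2.308. These pairs were summed for tests and averaged for CPM. The limit came from earlier work on these values.

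Members, pathway lists, marker lists and the summing of pairs were chosen with earlier results of these data known. Named genes are the members, up to 4 genes a list with the largest change past the threshold (or the largest difference in the library apart), and the 3 genes most like each member. Marker genes called were named after their values were seen. Alternatives were DESeq2 1.42.0, limma 3.58.1 on log2(CPM + 1), other scaling, filters and samples, and a replicate block. On simulated data with 14361 genes, the test recovered 71 of 100 genes changed 2-fold and 98 of 100 changed 4-fold in the sedentary comparison, and 69 and 95 in the trained comparison. Among the unchanged genes, 9 were called in the sedentary and 4 in the trained comparison. Counts were drawn independently with the spread fitted to these data, so the simulation shows recovery under the test's own model only. Genes overlapping others on either strand are uncertain, because strandedness is not given in the sources used here. Promoter windows came from a RefSeq table of GRCm38.p6.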

Additional observations from a re-analysis of the deposited data

Results flagged for a closer look

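In the groups examined, all results set apart by distance from their group came from Vehicle Exercise Trained 2. Its gap to the nearest of the other 4 libraries, divided by the range of the group, exceeded Dixon's critical value for 5 samples. This held for 9 of the 10 members. Of the metal-binding genes, Mt1 was at 1674.5 CPM and Mt2 at 1159.9 CPM. Of the p53-linked genes, Cdkn1a was at 800.7 CPM, Sesn1 at 796.5 CPM and Gadd45a at 320.4 CPM. The glucocorticoid targets Tsc22d3, Zbtb16 and Fkbp5 were at 890.9, 244.4 and 185.8 CPM, and Cebpd was at 608.5 CPM. In all, 30 sets of a member and a group were examined, and chance picks out about 1 in 20 such sets. The trained knockout group was not examined in this way. The 9 come from 1 library that had already been set apart, so they are not separate draws and add no test of it.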

How the results depend on the processing

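Of all choices, keeping Vehicle Exercise Trained 2 in the fit changed the members most. With it, 334 genes and 0 members were called in sedentary muscle, 473 genes and 3 members (Nr3c1, Fkbp5 and Tsc22d3) in trained muscle, and 0 genes for training in muscle labelled knockout. The log2 knockout difference in trained muscle became -4.42 for Mt1, -5.18 for Mt2, -0.46 for Cdkn1a, -1.08 for Gadd45a and -2.90 for Sesn1, the training difference of Zbtb16 in vehicle muscle became 0.57, the interaction became -4.50 for Mt1 and -4.22 for Cdkn1a, and the trained difference of Arntl became -0.21 (an alternative added after seeing the data). With all libraries separate, 2048 genes were called in trained muscle, 1 for training in vehicle muscle and 513 genes with 1 member (Nr3c1) for training in muscle labelled knockout, and Mt2 in trained muscle was at -0.16. Library totals as the scale gave 1 gene for training in vehicle muscle and 336 genes with 1 member (Nr3c1) in muscle labelled knockout, with -0.031 for Mt2 in trained muscle, -0.0068 for Sesn1 with training in vehicle muscle, -0.071 for Fkbp5 with training in muscle labelled knockout and -0.070 for the interaction of Cdkn1a. DESeq2 called 22, 684 and 87 genes for training in vehicle muscle, training in muscle labelled knockout and the interaction, and 1 member (Nr3c1, training in muscle labelled knockout). In sedentary muscle DESeq2 called 6 members (Nr3c1 and Fkbp5 beside the 4 of edgeR), and edgeR on only the groups compared called 5 (Fkbp5 added). limma called 75 genes for training in muscle labelled knockout, with -0.027 for Mt2 in trained muscle and -0.046 for the interaction of Cdkn1a. Fits of only the groups compared called 378 genes and 1 member (Cdkn1a) in trained muscle and 0 genes for training in muscle labelled knockout. The median-of-ratios scale and the fit with no low-count filter turned no member.

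Same-numbered libraries do not come from the same animal by any label. Of 27 same-numbered pairs, 12 had a correlation of deviations over 0.1 (median -0.0358, beside -0.0261 for other numbers), and 2 of 19 libraries were most like one of their own number, so the number was not taken as a pairing. A fit with the replicate block, which keeps all libraries separate, called 1942 genes in trained muscle, 1 for training in vehicle muscle and 1 member (Nr3c1) for training in muscle labelled knockout. In it Mt2 in trained muscle was at -0.39, and the training difference in muscle labelled knockout was -0.017 for Fkbp5 and -0.0064 for Mt2.

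Leaving out 1 sample at a time gave 612 (without the knockout-trained pair 3 and 5) to 1478 genes and 3 to 6 members in trained muscle, with 723 genes without trained vehicle library 4. For training it gave 0 to 1 gene in vehicle muscle and 0 to 1762 genes with 0 to 2 members in muscle labelled knockout. The highest of these counts came without the pair 1 and 4 (Nr3c1 and Mt1 called), 491 genes and Nr3c1 came without trained vehicle library 1, and 0 genes came without sedentary knockout library 1, 2 or 3, library 2 of the trained knockout group or its pair 3 and 5. Log2 differences whose direction turned for at least 1 sample, none of them called, ranged in sedentary muscle from -0.015 to 0.19 for Mt1 and -0.24 to 0.057 for Cebpd, and in trained muscle from -0.52 to 0.42 for Mt2 and -0.43 to 0.13 for Cebpd. Training in vehicle muscle ranged from -0.27 to 0.27 for Cebpd and -0.084 to 0.074 for Sesn1. Training in muscle labelled knockout ranged from -0.16 to 0.35 for Fkbp5, -0.14 to 0.033 for Tsc22d3, -0.31 to 0.63 for Mt2, -0.33 to 0.30 for Cdkn1a, -0.19 to 0.030 for Gadd45a and -0.28 to 0.19 for Cebpd. Interactions ranged from -0.26 to 0.038 for Zbtb16, -0.059 to 0.45 for Mt1, -0.43 to 0.21 for Cdkn1a and -0.34 to 0.22 for Cebpd. The cause of these changes was not tested. The 9 members more than 2-fold higher in Vehicle Exercise Trained 2 stayed 9 under TMM scaling, a pseudocount of 0.1 and without each other library of its group, alternatives added after seeing the data. Depth limits Mt2 most, at 36 estimated counts in knockout-trained library 1, its lowest count.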
